A study of Mus musculus with 18 samples.

Results

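Leukotrienes and prostaglandins are lipid mediators made from arachidonic acid, and the transcripts of 10 enzymes and helper proteins of their synthesis were followed in eosinophils from the small intestine of mice. They are known steps of the pathway, and all 10 were present among the 22708 genes measured. They comprise the phospholipase *Pla2g4a*, the lipoxygenase branch (*Alox5*, *Alox5ap*, *Ltc4s*, *Lta4h* and *Alox15*) and the cyclooxygenase branch (*Ptgs1*, *Ptgs2*, *Hpgds* and *Ptges*).

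Synthesis starts when a cytosolic phospholipase frees arachidonic acid from membrane lipids. Lipoxygenases turn the freed acid into leukotrienes and related hydroxy acids, and cyclooxygenases turn it into prostaglandin H2, from which terminal synthases make the separate prostaglandins and thromboxane. Eosinophils are a well-known source of cysteinyl leukotrienes, which constrict smooth muscle, make vessels leaky and attract further leukocytes, and in the gut wall prostaglandins act on epithelium, vessels and immune cells.

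RNA was sequenced in bulk from eosinophils sorted from the small intestine by the gate CD11b+MHC-II-SiglecF+SSChi, in 18 samples of the strain given as C57/BL6. By label, 6 samples were wildtype (WT), 6 were *Ahr*-/- and 6 were *Ahrr*-/-. Females gave 3 samples per genotype (F1 to F3) and males the other 3 (M1 to M3), and RNA was used where its integrity number reached the limit set by the submitters. Ligands from diet, microbes and environment switch on the transcription factor AHR (aryl hydrocarbon receptor), and AHRR is its repressor, itself encoded by a gene that AHR induces. The *Ahr* knockout was of the whole body, so the cells around the eosinophils carried the same genotype in *Ahr*-/- mice. Whether the *Ahrr* knockout was of the whole body is not said in its labels, and no age or treatment was given in the labels. The *Ahr*-/- and WT mice were neither littermates nor housed together, so litter, housing and genotype cannot be told apart in these samples. Depth ran from 3842977 to 8149200 counts per sample in WT, from 6581818 to 10284124 in *Ahr*-/- and from 8788867 to 12046933 in the samples labelled *Ahrr*-/-, so that low counts were least precise in WT. Values are the log2 variance-stabilized expression of the deposited table, whose lowest value stands for 0 counts and on which the differences of scarce transcripts are compressed against ratios of counts. A gene was tested in a comparison where its mean over the samples compared was at least 6.02, and it was called where the adjusted p was below 0.05.

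The transcripts of the targeted genes were read first. *Ahr*, with a median of 13.76 in WT, 14.55 in *Ahr*-/- and 13.51 in the samples labelled *Ahrr*-/-, was not lower in *Ahr*-/- than in WT (difference 0.61, standard error 0.19, adjusted p = 0.0557). It was called higher there in 9 of 26 alternatives (adjusted p from 0.0145 to 0.155), among them those without F2 or M1 of WT (0.0145 to 0.0297). Against the samples labelled *Ahrr*-/- it was called higher in *Ahr*-/- (difference 0.82, adjusted p = 0.0296, called in 16 of 25 alternatives). *Ahrr* lay at 9.79 at the lowest, 10.12 at the median and 10.39 at the highest in WT, from the value of 0 counts to 5.79 with a median of 5.25 in *Ahr*-/- and at 9.95, 10.37 and 10.93 in the samples labelled *Ahrr*-/-. Every *Ahr*-/- sample was thus far below every WT sample for *Ahrr* (difference -4.83, adjusted p = 4.95e-12, 6 of 6 samples below all of WT), whereas the samples labelled *Ahrr*-/- were not below WT (difference 0.28, adjusted p = 0.683). Counts here are summed over the whole gene, and whether exons were deleted was not tested. Genotypes are therefore used as labelled, and the last group is named by its label throughout.

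Levels of the enzymes in WT were compared per kb of exon, as mean normalized counts over 6 samples. *Alox15*, a lipoxygenase that oxygenates arachidonic and linoleic acid, stood highest at 6834 counts per kb (range 5249 to 8073). *Ptgs2*, the inducible cyclooxygenase, followed at 4101 (1368 to 8627), and *Alox5ap*, the nuclear-membrane protein that presents arachidonic acid to the 5-lipoxygenase, at 2559 (2021 to 2837). Neighbouring ranges overlapped along this top of the order, down to *Lta4h*, the hydrolase that makes leukotriene B4, at 1756 (1171 to 2677). *Alox5*, the 5-lipoxygenase itself, had 878 (772 to 989), a range that touched neither neighbour. *Pla2g4a* at 212 and *Ptgs1*, the constitutive cyclooxygenase, at 192 overlapped with each other (122 to 376 and 147 to 273). *Ltc4s*, the synthase that joins leukotriene A4 to glutathione, reached 12.7 (6.30 to 24.6) and *Hpgds*, the haematopoietic synthase of prostaglandin D2, 2.88 (0.747 to 4.65). *Ptges*, the microsomal synthase of prostaglandin E2, was at 0.155, with 0 counts in 4 of the 6 WT samples, 5 of the 6 *Ahr*-/- samples and 1 of the samples labelled *Ahrr*-/-. Its mean normalized count was 0.611, 0.698 and 2.26 in these groups, the last raised by M2 at 8.12. Its mean value stayed below the minimum for a test in each comparison. *Ptgs2* thus stood far above *Ptgs1* per kb, and the cysteinyl leukotriene synthase *Ltc4s* far below the hydrolase *Lta4h*.

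The members also differed in how evenly they were expressed among samples of the same genotype and sex. The residual standard deviation of *Ptgs2*, once genotype and sex were fitted, was 0.757 on the log2 scale, larger than that of 99.2% of the 11468 genes tested over the 18 samples. *Pla2g4a*, with 0.513, was above 94.5% of these genes, and *Alox5ap*, with 0.441, above 89.8%. *Ptgs1* (0.285) and *Alox5* (0.285) varied less between samples of the same kind. The 0.204 of *Ltc4s* does not show evenness, since differences of scarce transcripts are compressed on this scale. Its normalized counts in WT ran from 6.39 to 24.9 around a mean of 12.9. Annotated genes on the opposite strand overlap *Alox5ap*, *Ltc4s*, *Ptgs1*, *Hpgds* and *Pla2g4a*, and a processed pseudogene on the same strand overlaps *Ptges*. None of these overlapping genes had values of its own here, and whether reads were counted by strand is not given in the sources used here, so their reads cannot be told apart from those of the enzymes.

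**Figure D1:**
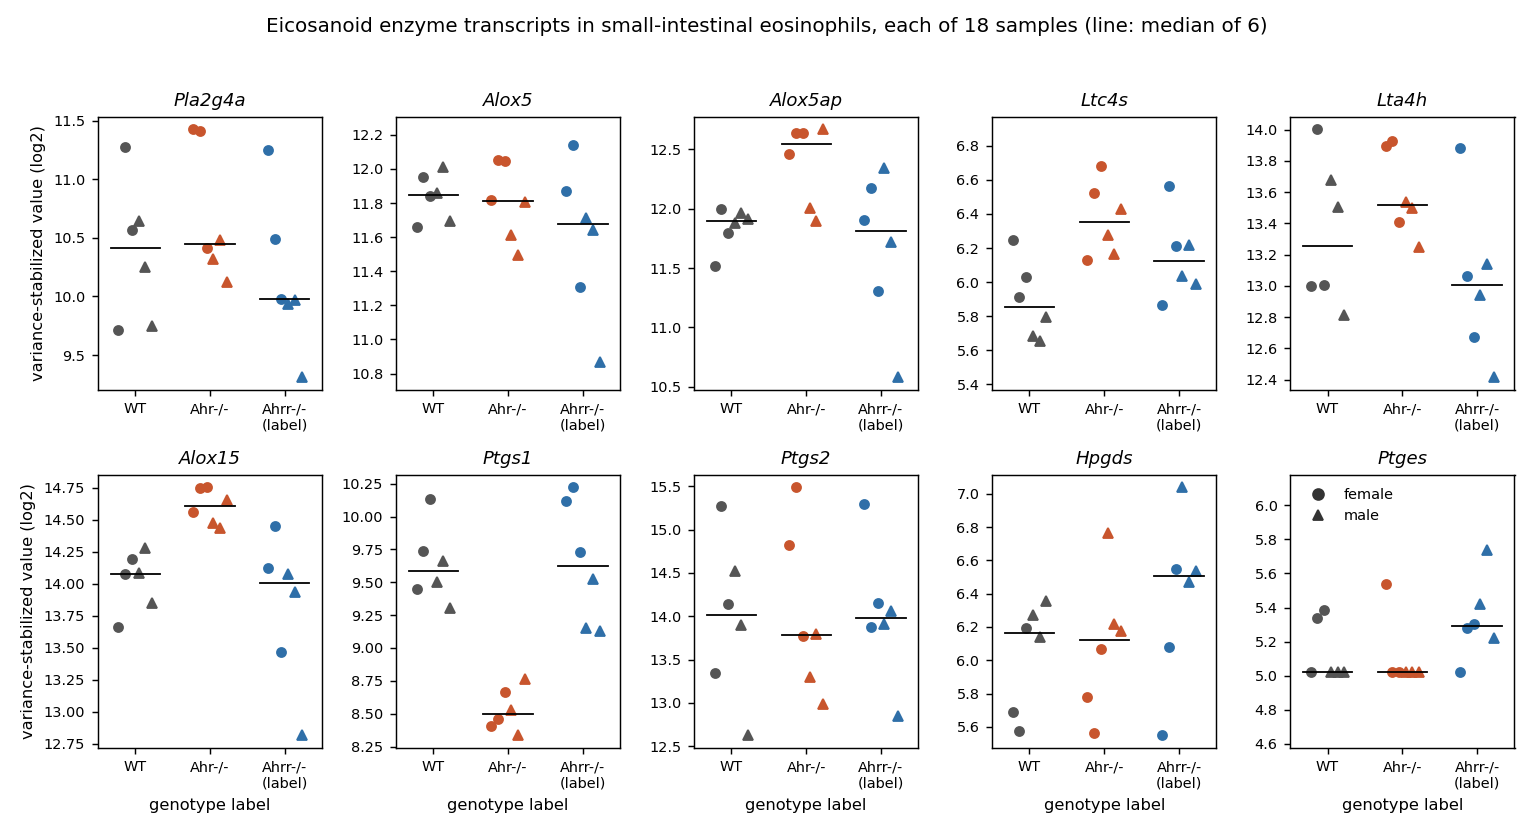
Variance-stabilized value (log2) of the 10 enzyme genes in each of the 18 samples, by genotype label, with circles for females, triangles for males and a line at the median of 6. All Ahr-/- samples sit below all others for Ptgs1, at or under 8.76, and above all WT samples for Alox15, at or over 14.43.

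Promoters of 8 members, 9 windows in all, were read from the RefSeq promoter table on GRCm38.p6, from 250 bases before a start to 50 after it. It held no entry for *Alox15* and *Alox5ap*, which were both called in *Ahr*-/- against WT. Both strands were searched for GCGTG, the core letters of the element to which AHR and its partner ARNT bind, which reads CACGC on the other strand. Of all 32851 promoters in the table, 10639 (32.4%) held these letters, as did 3 of the 9 windows: those of *Ptgs2*, *Ptges* and the upstream start of *Pla2g4a*. Shown are the windows of *Ptgs1* (chr2:36230176-36230475, + strand) and *Ltc4s* (chr11:50238483-50238782, - strand), which hold no match, and of the neighbours *Ptgs2* (chr1:150099781-150100080, + strand) and *Pla2g4a* (chr1:149961241-149961540, - strand), which varied together and hold 1 each. *Ptgs1* and *Ltc4s* were called in *Ahr*-/- against WT, though the call of *Ltc4s* carries no weight, as explained below. They read 5′ to 3′ along the gene, with the matched letters in capitals, which start at base -98 from the start in *Ptgs2* and at -235 in *Pla2g4a*.
Ptgs1: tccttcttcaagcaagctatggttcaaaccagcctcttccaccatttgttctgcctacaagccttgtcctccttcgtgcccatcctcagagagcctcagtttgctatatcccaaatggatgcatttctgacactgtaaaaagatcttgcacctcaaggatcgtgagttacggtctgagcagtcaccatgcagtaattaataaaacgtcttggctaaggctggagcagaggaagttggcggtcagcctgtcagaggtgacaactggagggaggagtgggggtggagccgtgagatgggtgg
Ltc4s: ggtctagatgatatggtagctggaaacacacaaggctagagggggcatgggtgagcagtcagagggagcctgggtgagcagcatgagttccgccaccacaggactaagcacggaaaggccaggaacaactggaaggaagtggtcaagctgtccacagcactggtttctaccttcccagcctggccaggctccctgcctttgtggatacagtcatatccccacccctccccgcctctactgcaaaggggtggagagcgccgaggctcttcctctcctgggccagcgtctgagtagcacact
Ptgs2: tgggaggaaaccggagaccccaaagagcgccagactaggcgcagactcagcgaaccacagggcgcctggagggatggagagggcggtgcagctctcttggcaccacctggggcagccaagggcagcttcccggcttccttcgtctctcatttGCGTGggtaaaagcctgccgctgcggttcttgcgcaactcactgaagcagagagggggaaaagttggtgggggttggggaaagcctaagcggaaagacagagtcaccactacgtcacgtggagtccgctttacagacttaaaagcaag
Pla2g4a: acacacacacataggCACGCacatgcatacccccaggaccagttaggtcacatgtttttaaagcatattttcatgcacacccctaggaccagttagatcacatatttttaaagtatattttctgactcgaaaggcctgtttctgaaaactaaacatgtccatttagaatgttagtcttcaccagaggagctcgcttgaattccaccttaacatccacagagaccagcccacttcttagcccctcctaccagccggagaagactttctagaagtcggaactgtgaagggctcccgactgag
A match describes the letters alone, and binding was not measured.

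The comparison of *Ahr*-/- with WT asks what differs in intestinal eosinophils of animals labelled as lacking AHR. The constitutive cyclooxygenase *Ptgs1* fell to less than 1/2 of its WT count, while the lipoxygenase *Alox15* and the 5-lipoxygenase partner *Alox5ap* rose. The leukotriene C4 synthase *Ltc4s* was also called higher, though its call carries no weight for the reason given below. *Alox5*, *Lta4h*, *Pla2g4a*, *Ptgs2* and *Hpgds* were not called. Of the 10 members 9 were tested and 4 were called, where 8.84% of the 11346 tested genes were. By direction, 3 were called higher (5.16% of all tested genes) and 1 lower (3.68%), and the median difference of the 9 was 0.25, against -0.00 for all tested genes. *Ltc4s* entered the test through the *Ahr*-/- samples alone, since its WT mean lay under the minimum, so its call carries no weight, in that count or by itself.

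*Ptgs1* (Entrez 19224, chromosome 2 of GRCm38 from 36230426 to 36252272) stood at 9.31 at the lowest, 9.58 at the median and 10.14 at the highest in WT, and at 8.34, 8.50 and 8.76 in *Ahr*-/-. The groups did not overlap: the highest *Ahr*-/- sample, M3, lay below the lowest WT sample, also M3. The difference was -1.11 (standard error 0.13, 95% interval -1.38 to -0.83, adjusted p = 3.59e-05, 6 of 6 samples below all of WT), and the mean normalized count was 2.41 times as high in WT as in *Ahr*-/-. It was called under each of 26 alternatives, with adjusted p from 3.55e-06 to 0.000207, and leaving out any sample kept the difference between -1.17 and -1.01. Its window printed above was among those without the AHR core letters.

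*Alox15* (Entrez 11687, chromosome 11 from 70344152 to 70352031), the most abundant member per kb, had values of 13.66, 14.08 and 14.28 in WT and of 14.43, 14.61 and 14.75 in *Ahr*-/-. Every *Ahr*-/- sample lay above every WT sample, by a narrow margin between M2 of each group. Its difference was 0.58 (standard error 0.15, 95% interval 0.26 to 0.89, adjusted p = 0.0231), and its mean normalized count was 1.49 times the WT count. *Alox5ap* (Entrez 11690, chromosome 5 from 149264767 to 149288153) had values of 11.52, 11.90 and 12.00 in WT and of 11.89, 12.55 and 12.67 in *Ahr*-/-. Here 5 of 6 *Ahr*-/- samples lay above all of WT, with M2 among the WT values and M1 just above them. Its difference was 0.54 (standard error 0.15, 95% interval 0.22 to 0.86, adjusted p = 0.0335), again 1.49 times on the count scale. *Alox5*, whose product works with that of *Alox5ap*, had values of 11.66, 11.85 and 12.01 in WT and of 11.49, 11.81 and 12.05 in *Ahr*-/-. Its groups overlapped, with 2 *Ahr*-/- samples above all of WT and 2 below all of WT, and the difference was -0.03 (95% interval -0.27 to 0.21, adjusted p = 0.902).

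*Ltc4s* (Entrez 17001, chromosome 11 from 50236461 to 50238616) was scarce, with values of 5.66, 5.85 and 6.25 in WT and of 6.13, 6.35 and 6.68 in *Ahr*-/-, which stand for mean normalized counts of 12.9 and 31.3. All 6 *Ahr*-/- samples were above the WT median and 4 of 6 above all of WT, where F1 was the highest. The difference was 0.48 (standard error 0.13, 95% interval 0.21 to 0.75, adjusted p = 0.0260), and the count was 2.43 times as high. This call carries no weight, since the gene passed the minimum through *Ahr*-/- alone. The calls of *Alox15*, *Alox5ap* and *Ltc4s* hung on single samples and on the settings. *Alox15* was called in 18 of 26 alternatives (adjusted p from 0.00741 to 0.157) and was lost without M3 of WT or F1, F2, F3 or M3 of *Ahr*-/- (0.0510 to 0.0592), and with no minimum mean, with all 18 samples in the fit or without F3 of WT and F3 of *Ahr*-/- together (0.0716 to 0.157). *Alox5ap* was called in 16 of 26 (0.0137 to 0.216) and was lost without F1 or F3 of WT or F1, F2, F3 or M3 of *Ahr*-/- (0.0587 to 0.0888), and in the same 3 settings or with sample weights (0.0720 to 0.216). *Ltc4s* was called in 16 of 25 (0.0121 to 0.0834), was lost without M2 of WT or F2, F3, M1 or M3 of *Ahr*-/- (0.0508 to 0.0707), and also by limma voom on counts (0.0526), with the replicate label as a block (0.0538), with no minimum mean and without both F3 samples (0.0526 to 0.0834 over these). Without 1 of F2, F3 or M3 of *Ahr*-/- only 1 member, *Ptgs1*, was called, and without F1 of *Ahr*-/- 2 were.

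The other tested members differed by less than the spread between samples allowed to be called. *Pla2g4a*, which supplies the arachidonic acid, had values of 9.71, 10.41 and 11.27 in WT and of 10.13, 10.45 and 11.43 in *Ahr*-/- (difference 0.33, 95% interval -0.19 to 0.85, adjusted p = 0.445). *Lta4h* had values of 12.82, 13.25 and 14.00 in WT and of 13.25, 13.52 and 13.93 in *Ahr*-/- (difference 0.25, 95% interval -0.17 to 0.68, adjusted p = 0.479). Both had their highest WT value in F2. *Ptgs2* spanned 12.63 to 15.27 in WT and 12.98 to 15.49 in *Ahr*-/-, with M3 lowest and F2 highest in both groups, and its difference of 0.06 had a 95% interval from -0.74 to 0.86 (adjusted p = 0.947). That interval is wide, the sign of *Ptgs2* turned under quantile normalization (-0.01) and sample weights (-0.09), and it includes a difference as large as that of *Alox15*. *Hpgds* was at 5.57 to 6.36 in WT and 5.56 to 6.77 in *Ahr*-/- (difference 0.06, 95% interval -0.26 to 0.38, adjusted p = 0.859).

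**Figure D2:**
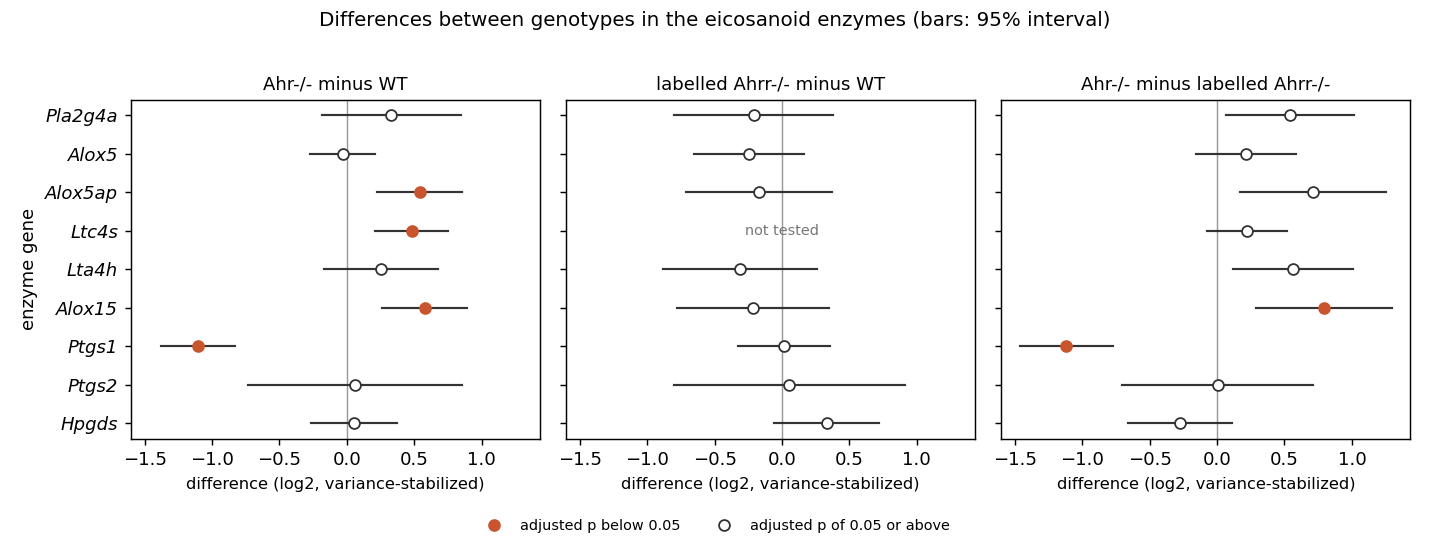
Difference (log2, variance-stabilized) of each tested enzyme gene in the 3 genotype comparisons, with its 95% interval and filled points where the adjusted p was below 0.05. Ptgs1 lies at -1.11 in Ahr-/- minus WT, at 0.01 in labelled Ahrr-/- minus WT and at -1.12 in Ahr-/- minus labelled Ahrr-/-.

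Around the 10 members, 60 further genes of the pathway were listed by role, of which 59 were in the table and 35 could be tested in *Ahr*-/- against WT. Of these 35, 9 were called higher and 2 lower, by limma voom 11 in all, where 5.16% and 3.68% of all tested genes were called higher and lower, and their median difference was 0.04. The largest was *Dpep2*, the membrane dipeptidase that converts leukotriene D4 into leukotriene E4. Its values were 9.30, 10.03 and 10.50 in WT and 6.14, 6.46 and 6.86 in *Ahr*-/-, mean normalized counts of 963 and 36.9. Each *Ahr*-/- sample was far below each WT sample (difference -3.49, standard error 0.17, adjusted p = 2.66e-09, called in 26 of 26 alternatives). Of the 8 tested genes of leukotriene conversion, export and breakdown, *Cyp4f18*, which oxidizes leukotriene B4, was also called, with a rise of 0.65 (adjusted p = 0.00662, 6 of 6 samples above the WT median). The glutathione transferases *Mgst2* (-0.34) and *Mgst3* (-0.25) and the exporter *Abcc1* (-0.18) were not called.

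Among the lipoxygenases outside the 10 members, *Alox12e*, an epidermal-type enzyme encoded 21523 bases from *Alox15* on chromosome 11, was the only 1 of 5 abundant enough to test. It had values of 6.92, 7.30 and 7.66 in WT and of 8.06, 8.42 and 9.12 in *Ahr*-/-, and all 6 *Ahr*-/- samples lay above all of WT (difference 1.19, standard error 0.15, adjusted p = 8.17e-05). *Alox12*, the platelet-type enzyme 88798 bases from *Alox15*, lay below the minimum. Of 6 tested phospholipases, the secreted *Pla2g3* rose by 0.82 (standard error 0.11, adjusted p = 0.000230, 6 of 6 samples above all of WT) and the lysosomal *Pla2g15* by 0.82 (adjusted p = 0.0088, 4 of 6 above all of WT). The most abundant of them, *Pla2g7*, which breaks down platelet-activating factor, was not called (-0.25), nor was *Plaat3* (0.24). Of the 3 genes that return arachidonic acid to phospholipids, the acyltransferases *Mboat7* (0.46, adjusted p = 0.0116, 5 of 6 above all of WT) and *Lpcat3* (0.42, adjusted p = 0.0172, 4 of 6) rose, and the ligase *Acsl4* (0.33, adjusted p = 0.345) was not called. The call of *Mboat7* was lost when all 18 samples entered the fit (adjusted p = 0.127), as was that of *Cyp4f18* (0.0512), and that of *Lpcat3* without F3 of WT and F3 of *Ahr*-/- together (0.0736).

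On the receptor side, 4 of 7 tested genes were called, where 8.84% of all tested genes were. The prostaglandin E2 receptor gene *Ptger4* rose by 0.74 (standard error 0.15, adjusted p = 0.00438, 6 of 6 samples above the WT median), and *Ptger2* by 0.59 (adjusted p = 0.0244, 5 of 6 above all of WT). *Ptger3*, a further receptor gene for the same ligand, went the other way (-0.74, standard error 0.19, adjusted p = 0.0260, 6 of 6 below the WT median). The cysteinyl leukotriene receptor gene *Cysltr1* rose by 0.46 (adjusted p = 0.0275, 4 of 6 above all of WT), and *Ltb4r1*, the leukotriene B4 receptor gene, was not called (-0.11). The calls of these receptors other than *Ptger4* depended on samples and settings: *Ptger2* was lost without F1, F3, M1 or M3 of *Ahr*-/- (adjusted p of 0.0566 to 0.0668) or with no minimum mean (0.0555). *Ptger3* was lost without F3 or M3 of WT or F1, F2, M2 or M3 of *Ahr*-/- (0.0572 to 0.0700) or with no minimum mean (0.0649). *Cysltr1* was lost without F1 or M1 of WT or F1, F2, F3 or M2 of *Ahr*-/- (0.0503 to 0.0694), and with no minimum mean, the replicate block, no sex in the model or without F3 of WT and F3 of *Ahr*-/- together (0.0507 to 0.0906). Of 5 tested terminal synthases none was called by limma, and 1 had an unadjusted p below 0.05, as had 2638 of all 11346 tested genes. *Tbxas1*, the thromboxane synthase, differed by -0.30 (adjusted p = 0.200) and *Ptges3* by 0.03. Of 5 genes for export, uptake and breakdown of prostaglandins none was called and none had an unadjusted p below 0.05, with *Abcc4*, *Ptgr1* and *Ptgr2* each at -0.12.

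**Figure D3:**
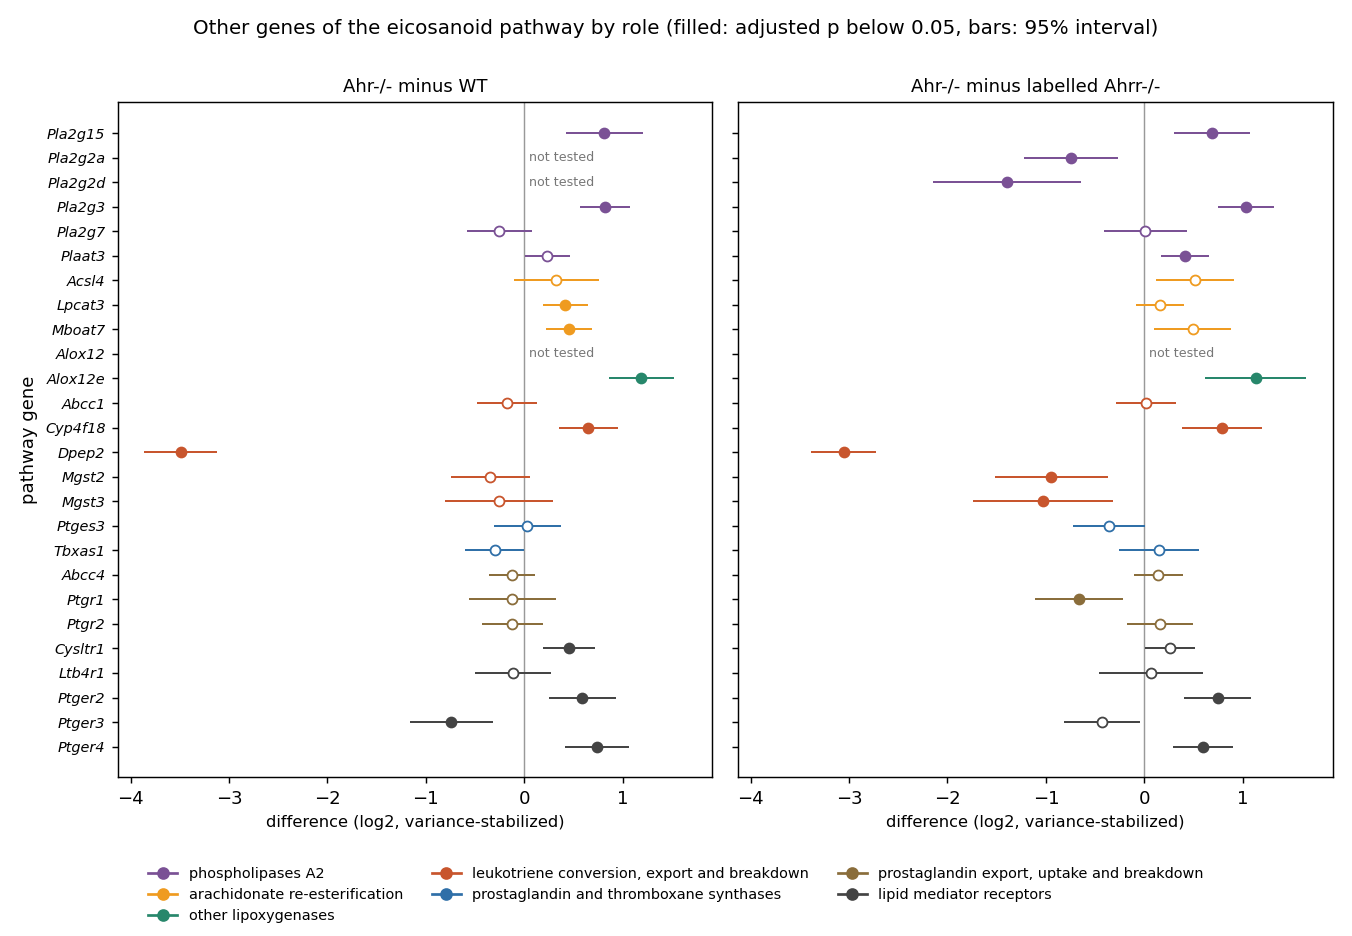
Difference (log2, variance-stabilized) of the named pathway genes outside the 10 members, coloured by role, in Ahr-/- minus WT and Ahr-/- minus labelled Ahrr-/-, with 95% intervals and filled points where the adjusted p was below 0.05. Dpep2 stands apart at -3.49 and -3.06, and Alox12e lies at 1.19 and 1.13.

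Marker lists of the sorted cells and of other cells that a gate could let through were summed as normalized counts per sample, since in bulk RNA fewer cells of a type and less RNA per cell cannot be told apart. The 10 eosinophil markers, led by *Ccr3*, summed to 12090 at the lowest, 17140 at the median and 20140 at the highest in WT, to 16580, 18180 and 22370 in *Ahr*-/- and to 7224, 15310 and 19990 in the samples labelled *Ahrr*-/-. Granule genes other than *Prg2* were scarce in this sort, with mean counts in WT of 10.9 for *Epx*, 6.11 for *Ear1*, 4.56 for *Ear2*, 1.29 for *Prg3* and 0.344 for *Ear6*. *Prg2*, with mean counts of 76.9 in WT, 624.8 in *Ahr*-/- and 102.3 in the samples labelled *Ahrr*-/-, was alone of 5 tested markers called in *Ahr*-/- against WT. The 9 neutrophil markers, led by *Retnlg*, summed to 23740, 35650 and 48580 in WT, to 54980, 83450 and 113300 in *Ahr*-/- and to 23840, 34720 and 44980 in the samples labelled *Ahrr*-/-. Each *Ahr*-/- sample was thus above each other sample, as for *Alox15* against WT, and *Retnlg*, which makes up nearly the whole sum, was called higher (1 of 5 tested). From WT to *Ahr*-/- the mean counts of *S100a9* (189.1 to 337.9), *S100a8* (102.0 to 199.4), *Ngp* (23.1 to 42.1), *Ltf* (14.8 to 28.95) and *Camp* (2.07 to 17.0) were higher too, but F3 of *Ahr*-/- was the highest of its group in each of them and carried much of the mean (1069, 719.2, 215.8, 80.1 and 100.9 counts in the same order). Those of *Mpo* (6.54 to 1.57) and *Ly6g* (1.38 in WT) were lower, *Elane* had 0 counts in both groups, and none of these others was called. *Mpo* and *Ly6g* were highest in F3 of both groups, and F3 of WT (39.23 and 8.26 counts) carried their WT means. Their lower means in *Ahr*-/- therefore rest on single libraries. The part of Retnlg-expressing cells in the higher values of *Alox15*, *Alox5ap* and *Ltc4s* was not tested.

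Lists of stromal and epithelial cells had lower median sums in *Ahr*-/- than in WT. The 8 fibroblast and endothelial markers, led by *Pecam1*, summed to 2605, 3327 and 3821 in WT, to 1885, 2124 and 2356 in *Ahr*-/- and to 2472, 3038 and 3884 in the samples labelled *Ahrr*-/-, and *Pecam1* was called lower in *Ahr*-/- (1 of 2 tested). Nearly the whole sum was *Pecam1* (mean counts 3169, 2021 and 2640 in the same order), so the sum says little about the other 7, which were scarce in WT and *Ahr*-/-. From WT to *Ahr*-/- the mean counts of *Col1a1* (25.8 to 18.02), *Col1a2* (17.7 to 12.9), *Kdr* (22.3 to 10.2), *Cdh5* (18.9 to 14.4) and *Lum* (1.88 to 0.314) were lower, and those of *Dcn* (13.0 to 15.45) and *Pdgfra* (4.43 to 9.01) higher. F3 of WT was the highest of its group in each of the lower genes and carried much of the WT means of *Kdr* (76.4 counts) and *Lum* (8.26). *Pdgfra* was highest in F3 of both groups (18.6 in WT and 30.2 in *Ahr*-/-). In the samples labelled *Ahrr*-/- all 7 were above WT, with *Dcn* at 149.1. The 8 epithelial markers, led by *Muc2*, summed to 5055, 7384 and 15440 in WT, to 3219, 5145 and 6195 in *Ahr*-/- and to 3808, 15530 and 29590 in the samples labelled *Ahrr*-/-, and *Muc2* was called lower in *Ahr*-/- (1 of 8 tested). *Fabp1* (0.43) and *Apoa1* (0.37) of this list had differences above 0 there, without being called, and the other 6 below. F1 of WT, with the highest epithelial and lowest eosinophil sum of its group, also had the lowest *Alox5*, *Alox5ap* and *Alox15*. The 10 macrophage and dendritic cell markers, led by *Cd74*, summed to 881.3, 1484 and 2557 in WT, to 296.0, 1013 and 3772 in *Ahr*-/- and to 649.6, 2641 and 5875 in the samples labelled *Ahrr*-/-. F1, F2 and F3 of *Ahr*-/- lay below all of WT, M1 and M2 above, and M3 within the WT range. The 9 lymphocyte and plasma cell markers, led by *Jchain*, summed to 247.2, 600.7 and 1814 in WT, to 104.5, 277.4 and 757.4 in *Ahr*-/- and to 330.0, 3942 and 6102 in the samples labelled *Ahrr*-/-. Neither list had a called gene in *Ahr*-/- against WT by limma (7 and 3 tested, 0 and 1 with an unadjusted p below 0.05, where 2638 of all 11346 tested genes had one). The part of any of these cells in the fall of *Ptgs1* was not tested.

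Mast cells, basophils and tuft cells are other known makers of leukotrienes and prostaglandins, and their markers were low or uneven. The 10 mast cell markers summed to between 612.7 and 8092 in WT, 724.6 and 9061 in *Ahr*-/- and 1402 and 8530 in the samples labelled *Ahrr*-/-, mostly from *Hdc*, which eosinophils also express. The mast cell proteases were low, with mean counts in WT of 9.01 for *Cpa3*, 2.07 for *Mcpt1*, under 1 for *Mcpt2*, *Tpsb2* and *Cma1* and 0 for *Mcpt4*, and the IgE receptor gene *Fcer1a* had 0 counts there. In the samples labelled *Ahrr*-/- some were higher and uneven, with means of 25.55 for *Mcpt1* (0 to 84.6), 10.9 for *Mcpt2* (0 to 30.2), 5.36 for *Cma1* and 3.18 for *Mcpt4*. Neither tested mast cell marker (*Hdc* and *Kit*) was called between genotypes by limma, and neither had an unadjusted p below 0.05. The 4 basophil markers in the table, led by *Cd200r3*, summed to a median of 1.83 in WT, 18.1 in *Ahr*-/- and 3.70 in the samples labelled *Ahrr*-/-, and none was abundant enough to test. The higher sum in *Ahr*-/- was nearly all *Cd200r3* (mean counts 3.55 in WT and 16.25 in *Ahr*-/-). From WT to *Ahr*-/- the means of *Mcpt8* (1.03 to 0.157) and *Ms4a2* (1.03 to 0.785) were lower and that of *Fcer1a* (0 to 0.598) higher. F3 of WT, at 6.20 counts in each, carried the WT means of *Mcpt8* and *Ms4a2*. The 6 tuft cell markers, led by *Dclk1*, had median sums of 64.7, 54.2 and 79.0, and the 1 tested was not called between genotypes, with an unadjusted p of 0.05 or above.

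**Figure D4:**
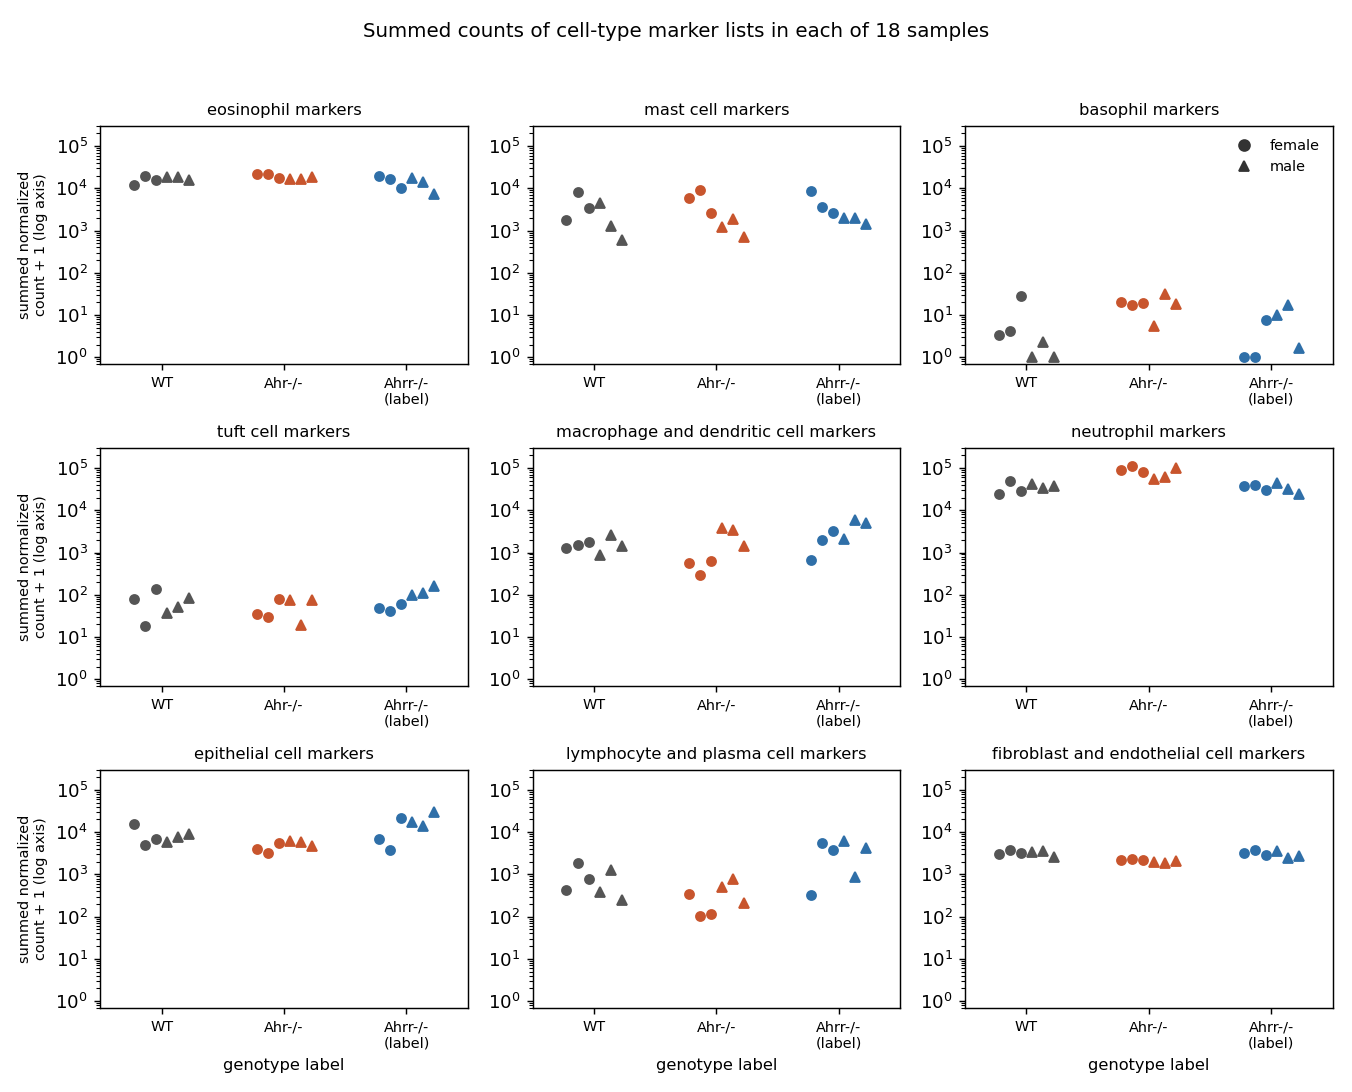
Summed normalized count + 1 (log axis) of 9 lists of cell-type markers in each of the 18 samples, by genotype label, with circles for females and triangles for males. The neutrophil list, whose sum is nearly all Retnlg, is at 54980 or above in all Ahr-/- samples and at 48580 or below in the others.

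The samples labelled *Ahrr*-/- were set against WT to ask whether the pathway differs in animals meant to lack the AHR repressor, with the reservation that the *Ahrr* transcript was not lower in them. None of the tested members was called in this comparison. Hardly any of all genes were, so this does not show that the members were unchanged. Among those tested, the nearest to a difference were *Hpgds*, which was higher in 4 of 6 samples than in any WT sample, at 1.91 times the WT mean count, and *Lta4h* and *Alox5*, which were lower in the median. None of the 8 tested members was called by limma, where 9 of 11546 genes were (0.0779%, all higher, 0.0779%, and 0.0% lower). None of these 8 had an unadjusted p below 0.05 by limma, where 853 of all tested genes had, and limma voom called none. *Ltc4s*, with values of 5.86, 6.12 and 6.56 in these samples, was not tested, since its mean over WT and these samples fell just under the minimum. All 6 lay above the WT median, at 1.70 times the WT mean count. *Ptges*, also not tested, had 5 of 6 samples above the WT median, at mean counts of 2.26 against 0.611. That median was 0 counts, so 1 count put a sample above it, and M2 at 8.12 carried much of the mean of 2.26.

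*Ptgs1* stood at 9.13, 9.62 and 10.22 in the samples labelled *Ahrr*-/-, around the WT values on both sides, and the difference of 0.01 had a 95% interval from -0.33 to 0.35 (adjusted p = 0.983). *Hpgds* was at 5.55, 6.50 and 7.04 against 5.57, 6.17 and 6.36 in WT (difference 0.33, standard error 0.18, adjusted p = 0.671). *Alox15* was at 12.82, 14.00 and 14.45 (difference -0.21, adjusted p = 0.811) and *Alox5ap* at 10.58, 11.81 and 12.35 (difference -0.17, adjusted p = 0.840). In both, M3 was far below the other samples, and the difference of *Alox5ap* turned to 0.07 without it (range -0.33 to 0.07 with a sample left out). M3 was also the lowest of the group for *Alox5* (10.87), *Lta4h* (12.42), *Ptgs1* (9.13), *Ptgs2* (12.85) and *Pla2g4a* (9.31), and it had the lowest eosinophil sum (7224) and the highest epithelial sum (29590). The part of epithelial RNA in these low values was not tested. The remaining differences were -0.31 for *Lta4h*, -0.25 for *Alox5*, -0.21 for *Pla2g4a* and 0.06 for *Ptgs2*, with adjusted p of 0.727 or above. None of the 39 tested pathway genes was called by limma or limma voom. By limma 5 of them had an unadjusted p below 0.05, as had 853 of all 11546 tested genes. Of the marker lists, *S100a8* and *S100a9* of the neutrophil list were called higher (2 of 5 tested).

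*Ahr*-/- samples were also set directly against the samples labelled *Ahrr*-/-, which leaves the WT samples out but shares the *Ahr*-/- samples with the comparison above. *Ptgs1* was again lower in *Ahr*-/- and *Alox15* higher. Of 9 tested members 2 were called, 1 higher and 1 lower, where 14.9% of 11474 genes were called, 6.84% higher and 8.04% lower, so the share of members was near that of all genes. Of all genes called, 46.0% were higher, against 54.3% with median centring and 55.7% with quantile normalization, so the prevailing direction turned with the scaling. The median difference of the members was 0.22, against 0.00 for all tested genes, 5 members had an unadjusted p below 0.05, as had 3760 of the 11474 genes, and limma voom called 2.

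For *Ptgs1*, all 6 *Ahr*-/- samples lay below all 6 of the other group (difference -1.12, standard error 0.16, 95% interval -1.46 to -0.77, adjusted p = 0.000531), whose mean normalized count was 2.503 times as high. The call was made in each of 25 alternatives (adjusted p from 3.37e-05 to 0.00333). For *Alox15*, 5 of 6 *Ahr*-/- samples lay above all of the other group, and the sixth above its median (difference 0.79, standard error 0.24, 95% interval 0.29 to 1.297, adjusted p = 0.0377, count ratio 1.64). This call was made in 16 of 25 alternatives (0.0173 to 0.0916) and was lost without F1, F2, M1, M2 or M3 of *Ahr*-/- or F3 or M3 of the samples labelled *Ahrr*-/- (0.0626 to 0.0916), and with no minimum mean or without sex in the model (0.0607 to 0.0840). *Alox5ap* (0.71, adjusted p = 0.0691), *Lta4h* (0.57, adjusted p = 0.0777) and *Pla2g4a* (0.54, adjusted p = 0.105) were not called, although in each all 6 *Ahr*-/- samples lay above the other group's median. *Alox5ap* passed without M1 of the samples labelled *Ahrr*-/- (0.0251), and with quantile normalization, sample weights or all 18 samples (0.0424 to 0.0442). *Lta4h* passed without F1 of the samples labelled *Ahrr*-/- (0.0145), and with the replicate block, sample weights or quantile normalization (0.0214 to 0.0438). *Pla2g4a* passed without that F1 or F3 of *Ahr*-/- (0.0268 to 0.0357), and with the replicate block or sample weights (0.0204 to 0.0341). *Ltc4s* (0.22, adjusted p = 0.291), *Alox5* (0.21, adjusted p = 0.413), *Ptgs2* (0.00, adjusted p = 0.994) and *Hpgds* (-0.28, adjusted p = 0.306) were not called.

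Of 38 tested pathway genes 7 were called higher in *Ahr*-/- and 6 lower, 12 in all by limma voom, where 14.9% of all tested genes were called. *Dpep2* (-3.06, adjusted p = 3.77e-09), *Alox12e* (1.13, adjusted p = 0.00759), *Pla2g3* (1.04, adjusted p = 0.000133) and *Ptger2* (0.75, adjusted p = 0.0072) were called, the first lower in 6 of 6 samples than in any sample labelled *Ahrr*-/-, the next pair higher in 6 of 6 and *Ptger2* in 5 of 6. *Cyp4f18* (0.79, adjusted p = 0.0146) and *Ptger4* (0.60, adjusted p = 0.0139), each with 6 of 6 samples above the other median, were lost without sex in the model (0.0598 and 0.0587). *Pla2g15* (0.69, adjusted p = 0.0212) was lost without M3 of either group (0.0523 to 0.0580), and *Plaat3* (0.41, adjusted p = 0.0247, 6 of 6 samples above all) without F1, F2, M1 or M3 of *Ahr*-/- or F3 or M3 of the other group (0.0524 to 0.0650). The lower genes besides *Dpep2*, each with 6 of 6 samples below the other median, were the secreted phospholipases *Pla2g2d* (-1.40, adjusted p = 0.0186) and *Pla2g2a* (-0.74, adjusted p = 0.0363), the microsomal glutathione transferases *Mgst2* (-0.95, adjusted p = 0.0296) and *Mgst3* (-1.03, adjusted p = 0.0481), and *Ptgr1*, a reductase of leukotriene B4 and prostaglandins (-0.66, adjusted p = 0.0421). *Pla2g2d* and *Pla2g2a* were tested through the samples labelled *Ahrr*-/- alone, since their means in *Ahr*-/- (5.73 and 5.72) lay under the minimum. Their calls therefore carry no weight, among the 6 or by themselves, whatever alternatives they passed. All of these but *Pla2g2d*, which was lost by limma voom alone (0.0658), were lost without any 1 of 6 to 8 samples, in each case M1 or M3 of *Ahr*-/- or F3 or M3 of the other group among them (0.0502 to 0.114). *Pla2g2a* was lost also without F1, F3 or M2 of *Ahr*-/- or M2 of the other group, *Mgst2* without F2 of *Ahr*-/- or M1 of the other group, *Mgst3* without F1, F2 or M2 of *Ahr*-/- or M1 of the other group, and *Ptgr1* without F1 or F2 of *Ahr*-/- or M1 of the other group. Settings ended these calls too: no minimum mean for *Pla2g2a*, *Mgst3* and *Ptgr1*, no sex in the model for *Mgst2*, *Mgst3* and *Ptgr1*, all 18 samples for *Mgst3* and *Ptgr1*, sample weights for *Mgst2*, a robust trend for *Mgst3* and limma voom for *Pla2g2a* (0.0509 to 0.105). In the same samples *Krt8* and *Epcam* of the epithelial list (2 of 8 tested), *C1qb* of the macrophage list (1 of 8), *Jchain* of the lymphocyte list (1 of 3) and *S100a8* and *S100a9* of the neutrophil list (2 of 5) were also called lower in *Ahr*-/-, and *Il5ra*, *Prg2* and *Siglecf* of the eosinophil list (3 of 5) and *Retnlg* (1 of 5) higher. *Cdh5* and *Col1a2* of the stromal list (2 of 6 tested) were called lower too, but their means in *Ahr*-/- (5.94 and 5.89) lay under the minimum, so they were tested through the samples labelled *Ahrr*-/- alone and their calls carry no weight. The part of those cells in these differences was not tested.

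Each genotype held 3 females and 3 males, so the sexes were compared over all 18 samples with genotype in the model. *Hpgds*, the scarce prostaglandin D2 synthase, was called higher in males, though its call carries no weight for the reason given below. *Ptgs2*, *Pla2g4a* and *Ptgs1* had lower medians in males without being called. Of 9 tested members 1 was called, where 3.06% of 11468 genes were, 0.602% higher in males and 2.46% lower, and 4 members had an unadjusted p below 0.05, as had 2145 of all tested genes. *Hpgds* entered the test through the males alone, since its mean in females (5.89, against 6.44 in males) lay under the minimum. Its call therefore carries no weight, in that count or by itself. *Hpgds* had values of 5.55 at the lowest, 5.78 at the median and 6.55 at the highest in the 9 females and of 6.14, 6.36 and 7.04 in the 9 males. The ranges overlapped, with F3 of the samples labelled *Ahrr*-/- the highest female (difference 0.55, standard error 0.14, 95% interval 0.25 to 0.84, adjusted p = 0.0381). The call was made in 16 of 29 alternatives (adjusted p from 0.00731 to 0.0919) and was lost without F2 or M3 of WT, F1, F2, M1, M2 or M3 of *Ahr*-/-, or F1, F2, M1 or M3 of the samples labelled *Ahrr*-/- (0.0517 to 0.0919), and with no minimum mean or without genotype in the model (0.0637 to 0.0857).

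*Ptgs2* had values of 13.34, 14.16 and 15.49 in females and of 12.63, 13.80 and 14.52 in males (difference -0.91, standard error 0.32, adjusted p = 0.120). *Pla2g4a* had values of 9.71, 10.57 and 11.43 in females and of 9.31, 10.13 and 10.64 in males (difference -0.64, standard error 0.21, adjusted p = 0.106). Both were called lower in males without F1 of WT (0.0410 and 0.0188), when 3 members passed, and with sample weights (0.0109 and 0.00479). The mast cell markers *Hdc* and *Kit* were called lower in males (2 of 2 tested), *Hdc* with values of 10.79, 11.78 and 13.07 in females and of 9.23, 10.33 and 12.10 in males. The part of Hdc-expressing cells in the values of *Ptgs2* and *Pla2g4a* was not tested. *H2-Ab1* of the macrophage and dendritic cell list (1 of 8 tested) was called higher in males. All 8 had differences above 0 (median 0.61), 5 of them with an unadjusted p below 0.05 by limma. The 8 tested epithelial markers were likewise all above 0 (median 0.536), 2 with an unadjusted p below 0.05 by limma and 0 called. The part of these cells in the differences between the sexes was not tested. *Ltf* of the neutrophil list (1 of 5) was called lower, but entered the test through the females alone. Of 38 tested pathway genes *Cysltr1* alone was called (0.40, adjusted p = 0.0323), where 3.06% of all tested genes were. Whether the genotype differences depended on sex was tested as an interaction. By limma 0 of 11346 genes (0.0%) were called for *Ahr*-/- and 0 of 11546 (0.0%) for the samples labelled *Ahrr*-/-, with 533 and 544 at an unadjusted p below 0.05. None of the 9 and 8 tested members had an unadjusted p below 0.05, and limma voom called none of them.

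Some members rose and fell together from sample to sample. Over all 18 samples 36 pairs of the 9 members with a mean above the minimum were correlated, and 15 pairs had an adjusted permutation p of Pearson's r below 0.05. The share of such pairs among all tested genes was not worked out, so this count does not set the members apart from other genes. Genes outside the members followed *Alox15* more closely than any member did, such as *Man2b1* with r = 0.965. *Alox15* followed *Alox5ap* with r = 0.928 (permutation p = 1e-05, the smallest that the permutations can give, adjusted 0.00012) and Spearman's rho of 0.822 (permutation p = 3e-05, adjusted 0.0009). It was 0.856 without the 2 samples farthest from the median (M3 of *Ahr*-/- and M3 of the samples labelled *Ahrr*-/-), 0.684, 0.924 and 0.950 within WT, *Ahr*-/- and the samples labelled *Ahrr*-/-, and 0.882 once genotype and sex were fitted. *Alox5* followed *Alox15* with r = 0.789 (permutation p = 0.00058, adjusted 0.00348) and rho of 0.583 (permutation p = 0.0128, adjusted 0.0384), which dropped to r = 0.410 without F3 and M3 of the samples labelled *Ahrr*-/-, so the pooled value rested on them. Within the genotypes the same pair had r of 0.887, 0.969 and 0.992, and 0.962 once genotype and sex were fitted, while *Alox15* stood higher in *Ahr*-/- at a like level of *Alox5*. Depth and housing went with genotype in these samples, so the coefficients describe how transcripts varied together and nothing more.

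Another set joined *Pla2g4a* with *Ptgs2* and *Lta4h*. *Ptgs2* followed *Pla2g4a* with r = 0.871 (permutation p = 1e-05, the smallest possible, adjusted 0.00012) and rho of 0.752 (permutation p = 0.00052, adjusted 0.00624). It was 0.809 without F2 of *Ahr*-/- and F1 of the samples labelled *Ahrr*-/-, 0.958, 0.964 and 0.912 within the genotypes in the same order, and 0.906 with genotype and sex fitted. *Lta4h* followed *Pla2g4a* with r = 0.894 (permutation p = 1e-05, adjusted 0.00012) and rho of 0.843 (permutation p = 5e-05, adjusted 0.0009), 0.844 without F2 of WT and M3 of the samples labelled *Ahrr*-/-, 0.836, 0.967 and 0.932 within the genotypes, and 0.916 with genotype and sex fitted. The samples at the top of all 3 were F2 of WT, F1 and F2 of *Ahr*-/- and F1 of the samples labelled *Ahrr*-/-, all females, and each of these also had a mast cell sum, mostly *Hdc*, of 6037 or more, above every other sample. *Ptgs2* and *Pla2g4a* are neighbours on chromosome 1, facing away from each other with 138740 bases between them, and their windows are printed above. *Hpgds* ran against *Pla2g4a*, with r = -0.672 (permutation p = 0.0026, adjusted 0.0117) and rho of -0.608 (permutation p = 0.00875, adjusted 0.0315), -0.634 without F1 and M1 of the samples labelled *Ahrr*-/-, and -0.318, -0.786 and -0.807 within the genotypes. This relation was weaker, at r = -0.453, with genotype and sex fitted, so differences between the sexes or genotypes entered the pooled value. The part of Hdc-expressing cells in these relations was not tested.

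**Figure D5:**
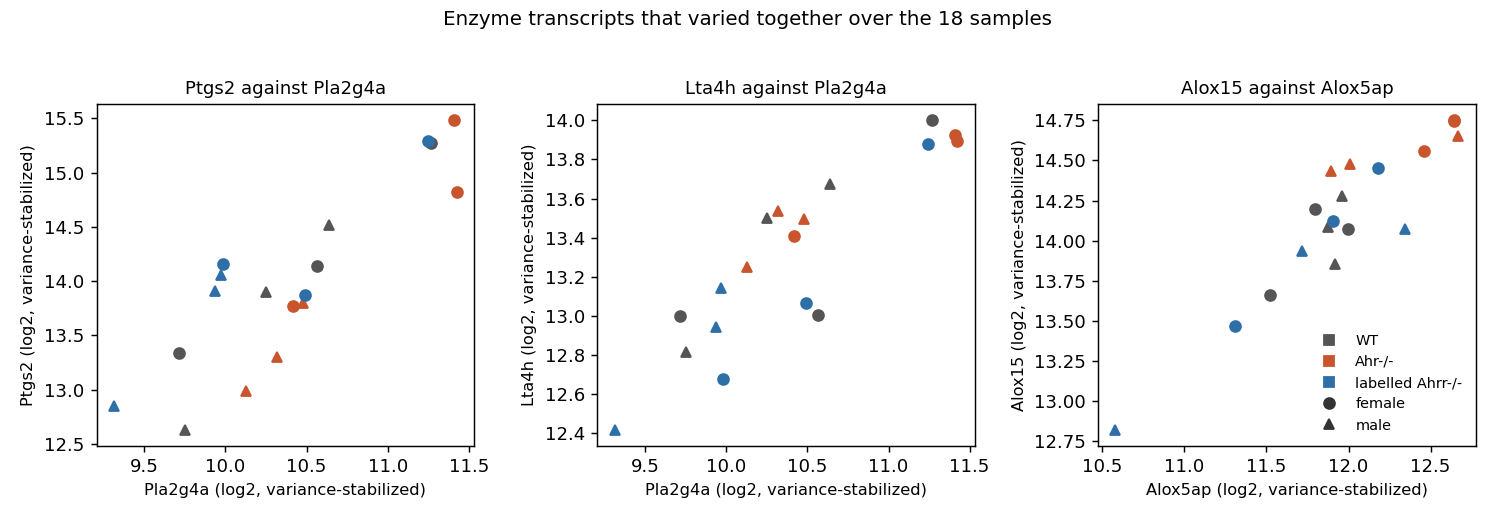
Ptgs2 and Lta4h against Pla2g4a, and Alox15 against Alox5ap, in each of the 18 samples (log2, variance-stabilized), coloured by genotype label, with circles for females and triangles for males. The points rise together, with r of 0.871, 0.894 and 0.928.

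For each member called between genotypes, the genes whose values ran most like it over the 18 samples were looked up among the 11468 tested genes, as a description. They were *Ggta1* (r = 0.957), *Ppfibp2* (0.942) and *Exoc3* (0.936) for *Ptgs1*, and *Man2b1* (0.965), *Pygl* (0.962) and *Fermt3* (0.959) for *Alox15*. For *Alox5ap* they were *Rac2* (0.958), *Cd52* (0.953) and *Cd44* (0.942), and for *Ltc4s*, with lower coefficients, *Emilin1* (0.856), *Ttyh3* (0.850) and *Plec* (0.807).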

How the data were processed

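RNA of sorted small-intestinal eosinophils was measured in 18 samples, grouped by the genotype and sex in their labels. Per the submitters' processing notes, STAR 2.5.2 and RSEM 1.3.0 with GRCm38, R 4.0.3 and DESeq2 were used, and the authors deposited log2 variance-stabilized expression of 22708 genes. These were tested as deposited, with limma in place of a model of counts since the unit is log2. Turning the transformation back gave whole counts for 100% of values (tolerance 0.0001), with totals from 3842977 to 12046933 per sample, which limits the precision of scarce transcripts. These counts, divided by size factors, gave the normalized counts. No sample was a copy of another. By the study's methods the replicates are mice, which the labels do not identify.

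Each genotype comparison was fitted across all tested genes with limma 3.58.1 (R 4.3.3, mean-variance trend, two-sided, sex as covariate, 12 samples), and the sexes over 18 samples with genotype as covariate. Genes needed a mean at least 1 above the lowest value, p values were adjusted by Benjamini-Hochberg over all tested genes, and the threshold was 0.05. The test was tried on simulated data, from which no result is drawn here. Correlations used 100000 permutations, two-sided. Alternatives were no or a stricter minimum (3 above the lowest), median centring, quantile normalization, sample weights, a robust or no trend, no covariate, the replicate label as a block, log2(count + 1) and log2(count + 8) on normalized counts, limma voom on counts, all 18 samples, and each sample left out. Leaving out both libraries with the most genes detected (F3 of WT with 20244, F3 of *Ahr*-/- with 19694) was added after seeing the data. Members, 7 role lists and 9 marker lists were chosen with earlier results of these data known. Named pathway genes are those called in a genotype comparison and, per role, the 2 with the highest mean count. Likeness names the 3 genes with the highest r. For marker lists the most abundant gene and those near 0 are named, and the called ones, which were chosen after their values were seen. By Entrez ID 22685 genes matched RefSeq, and positions and exon lengths came from GENCODE on GRCm38. *Ptgds*, *Prss34* and *Sh2d6* were not analysed here. Figures and tables came from matplotlib 3.10.9, scipy 1.17.1, pandas 2.3.3 and numpy 2.4.6 under Python 3.11.15.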

Additional observations from a re-analysis of the deposited data

Results flagged for a closer look

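Of 30 groups of 6 samples examined (10 members in 3 genotypes), 1 was marked as holding a sample apart from the others. F1 of *Ahr*-/- had a *Ptges* value of 5.54, from 5 counts, while the other 5 samples of the group had 0 counts, so the gap to the nearest sample equals the whole range. With those 5 tied at 0, any count at all in F1 would give this gap. Chance alone marks about 1 in 20 groups of this size where values are not tied, so that rate does not apply here. At 5 counts the difference is close to the limit of what this depth can show.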

How the results depend on the processing

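*Ptgs1* and *Dpep2* kept their direction and their call in *Ahr*-/- against WT and against the samples labelled *Ahrr*-/- under every alternative run. In *Ahr*-/- against WT the 4 called members became 1 with no minimum mean, 2 with all 18 samples and 1 without the 2 libraries with the most genes detected (added after seeing the data), and 1 to 4 with a sample left out. The 11 pathway genes became 6 with the stricter minimum, which tests fewer genes, and 8 to 12 with a sample left out. In *Ahr*-/- against the samples labelled *Ahrr*-/- the 2 members became 1 with no minimum mean, 4 with quantile normalization, 5 with sample weights, 4 with the block, 1 with no covariate and 1 to 4 with a sample left out (3 without F3 of *Ahr*-/- or M1 of the other group, 4 without F1 of the other group, and 1 without F1, F2, M1, M2 or M3 of *Ahr*-/- or F3 or M3 of the other group). The 13 pathway genes became 5 with the stricter minimum, 8 with no covariate and 7 to 18 with a sample left out (7 without M3 of either group, 8 without M1 of *Ahr*-/- or F3 of the other group). In males against females the 1 member became 0 with no minimum mean, the stricter minimum or no covariate, 3 with sample weights, and 0 to 3 with a sample left out. In the samples labelled *Ahrr*-/- against WT it was 0 throughout, 0 to 0 with a sample left out. Small differences changed sign: *Ptgs2* in *Ahr*-/- against WT was -0.0116 with quantile normalization and -0.0935 with sample weights. *Ptgs1* in the samples labelled *Ahrr*-/- against WT was -0.0327 with median centring, -0.0003 with quantile normalization and -0.0427 with sample weights. *Ptgs2* between the knockout labels was -0.15 with quantile normalization and -0.0176 with voom. With a sample left out, *Ahr*-/- minus WT ran from -0.087 to 0.0241 for *Alox5*, -0.0357 to 0.15 for *Hpgds* and -0.18 to 0.29 for *Ptgs2*. The samples labelled *Ahrr*-/- minus WT ran from -0.33 to 0.0653 for *Alox5ap*, -0.087 to 0.0765 for *Ptgs1* and -0.16 to 0.27 for *Ptgs2*, and *Ptgs2* between the knockout labels ran from -0.20 to 0.18. Over all genes, *Ahr*-/- against WT went from 1003 called to 553 with all 18 samples, 588 without the 2 libraries and 627 without F1 of *Ahr*-/- (627 to 1120 with a sample left out). The samples labelled *Ahrr*-/- against WT went from 9 to 4 with no minimum, median centring, log2(count + 1), the block or voom, 5 with the stricter minimum or quantile normalization, 14 with all 18 samples, 18 with sample weights, and 4 to 25 with a sample left out (25 without F1 of the samples labelled *Ahrr*-/-, 5 without their F3, and 4 without F1, F2, M2 or M3 of WT or F2, M2 or M3 of the samples labelled *Ahrr*-/-). Between the knockout labels 1708 became 828 with the stricter minimum, 994 with no covariate, and 815 to 2561 with a sample left out (815 without M3, 833 without M1, 909 without F1, 929 without M2 and 975 without F2 of *Ahr*-/-, and 927 without M3 and 1003 without F3 of the samples labelled *Ahrr*-/-). The cause of these shifts was not tested. Samples with the same replicate label did not deviate together throughout (correlations from -0.58 to 0.623), so they share only a label. With that label as a replicate block the called members numbered 3 in *Ahr*-/- against WT, 0 in the samples labelled *Ahrr*-/- against WT and 4 between the knockout labels, and the called pathway genes 10, 0 and 15. Depth limits *Ptges*, *Hpgds* and *Ltc4s*, the scarcest members.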
